A study of Mus musculus with 6 samples.

Results

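The 3 TGF-beta ligand genes (Tgfb1, Tgfb2, Tgfb3), the 4 genes of latent TGF-beta binding proteins (Ltbp1, Ltbp2, Ltbp3, Ltbp4) and the 2 fibrillin genes (Fbn1, Fbn2) were followed in mouse ovary. These 9 genes were taken by symbol from a count table of 35415 genes, and all 9 were among the 16841 genes expressed highly enough to be tested. The table came from bulk RNA sequencing of 6 ovary libraries, 3 from wild-type mice and 3 from Rnf111+/- mice, which carry 1 intact copy of the gene for the ubiquitin ligase Arkadia. All mice were 3 months old and in estrus, the phase around ovulation, and per the labels every library is a separate mouse. The mutant was made by CRISPR-Cas9 editing, and the study raised more than 1 mutant model. Which of them gave these ovaries, and the position edited, is not stated in the labels.

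TGF-beta is secreted as a latent complex in which its cut propeptide stays wrapped around the growth factor. A latent TGF-beta binding protein is linked to the propeptide and anchors the complex to matrix fibres built from fibrillins and fibronectin. Integrins, proteases or thrombospondin free the growth factor, which then acts through 2 receptor types and the transcription factors SMAD2 and SMAD3. Arkadia promotes this response by marking SMAD7 and the SKI family of repressors for degradation, so the design asks how ovarian transcripts differ when 1 copy of Rnf111 is affected.

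Fbn2 was the 1 of the 9 genes that passed the test between the genotypes, and it was 4.04-fold higher in Rnf111+/- ovaries. Called genes are those with an adjusted p under 0.05 in edgeR's quasi-likelihood test, and over all tested genes 9.64% were called, 3.9% as higher and 5.74% as lower in Rnf111+/- ovaries. Fbn1, its closest relative measured here, was at nearly equal levels in both genotypes, so that Fbn2 went from the scarcer to the more abundant fibrillin transcript per length. Tgfb1, Tgfb2 and Ltbp4 were higher, and Tgfb3 lower, in all 3 Rnf111+/- libraries than in any wild-type library, but these 4 differences did not pass the test. Groups were apart in this way for 5 of the 9 members, Fbn2 included, and for 32% of all tested genes. The members' median log2 fold change was 0.08, against -0.01 over all tested genes.

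Library totals ran from 38261449 to 39474515 counts, and a count of 3 corresponded to 0.0747 to 0.0784 CPM, which are counts scaled to the size of the library. Rnf111 itself was at 53.8, 53.5 and 54.4 CPM in wild-type libraries 1 to 3 and at 44.2, 44.9 and 44.7 CPM in the Rnf111+/- libraries. Its log2 fold change was -0.27 ± 0.07 (SE; edgeR's quasi-likelihood test, adjusted p = 0.04), and an exact two-sided permutation test gave p = 0.1, the smallest that 3 against 3 allows. Leaving out 1 library at a time, the adjusted p was above 0.05 in 5 of 6 fits. Granulosa and oocyte markers of ovary were present in every library. Wild-type library 3 stood apart: its summed oviduct epithelium markers were at 186 CPM, against 10.05 to 16.2 CPM in the other 5 libraries, and its summed granulosa markers were at 3545 CPM, against 6748 to 10640. Without it 16.2% of tested genes were called, and values without it are given where it moved a result.

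The promoters of Tgfb1, Tgfb2 and Ltbp4 are shown because these are the members with non-overlapping groups that have an entry in the promoter table; 7 of the 9 members were matched, all but Tgfb3 and Fbn2. Each line gives the 250 bases before the start site from RefSeq on build GRCm38.p6, read 5′ to 3′ on the strand of the gene, with matches to 6 motifs in capitals. The Ltbp4 line is the farthest upstream of its 3 start sites, and which of them the ovary uses was not measured.
Tgfb1, chr7:25686752-25687001, plus strand: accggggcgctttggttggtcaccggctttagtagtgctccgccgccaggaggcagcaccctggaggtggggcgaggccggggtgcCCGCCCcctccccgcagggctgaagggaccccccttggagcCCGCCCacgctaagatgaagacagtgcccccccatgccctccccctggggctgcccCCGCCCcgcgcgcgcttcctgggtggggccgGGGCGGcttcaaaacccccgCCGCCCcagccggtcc
Tgfb2, chr1:186705990-186706239, minus strand: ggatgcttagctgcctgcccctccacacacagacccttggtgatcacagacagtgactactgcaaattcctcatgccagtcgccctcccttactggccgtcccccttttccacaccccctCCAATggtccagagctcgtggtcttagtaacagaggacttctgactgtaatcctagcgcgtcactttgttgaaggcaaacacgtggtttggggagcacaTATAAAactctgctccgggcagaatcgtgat
Ltbp4, chr7:27337613-27337862, minus strand: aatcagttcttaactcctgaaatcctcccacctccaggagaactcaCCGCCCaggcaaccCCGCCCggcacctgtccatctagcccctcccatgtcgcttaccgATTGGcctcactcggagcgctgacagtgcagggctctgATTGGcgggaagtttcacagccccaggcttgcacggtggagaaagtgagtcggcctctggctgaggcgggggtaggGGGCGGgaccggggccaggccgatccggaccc

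Both strands were searched for the GC box GGGCGG, the CCAAT box, the TATA box as TATAAA, the AP-1 site TGANTCA, the cyclic AMP element TGACGTCA and the SMAD palindrome GTCTAGAC. The Tgfb1 stretch was 75.2% G or C, against a mean of 53.2% over 32851 promoters of the same length, and held 5 GC boxes and no other match. The Tgfb2 stretch was 53.6% G or C, with 1 CCAAT and 1 TATAAA, the latter 31 to 26 bases before the start. For Ltbp4 the printed stretch held 3 GC boxes and 2 CCAAT matches, and was 64.4% G or C. The windows of its start sites not printed, which overlap each other, were each 79.2% G or C. They held 5 and 7 GC boxes and no CCAAT match. Of all promoters, 32.7% held a GC box, 33.8% a CCAAT and 12.4% a TATAAA, so such matches are common. The AP-1 site was in 6.75% of promoters, the cyclic AMP element in 1.55% and the SMAD palindrome in 0.167%. None of these last 3 was in the printed windows, and among the windows of other members 1 cyclic AMP element was found, 73 to 66 bases before an Ltbp1 start. A match is a description of letters and not of a bound site.

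**Figure D1:**
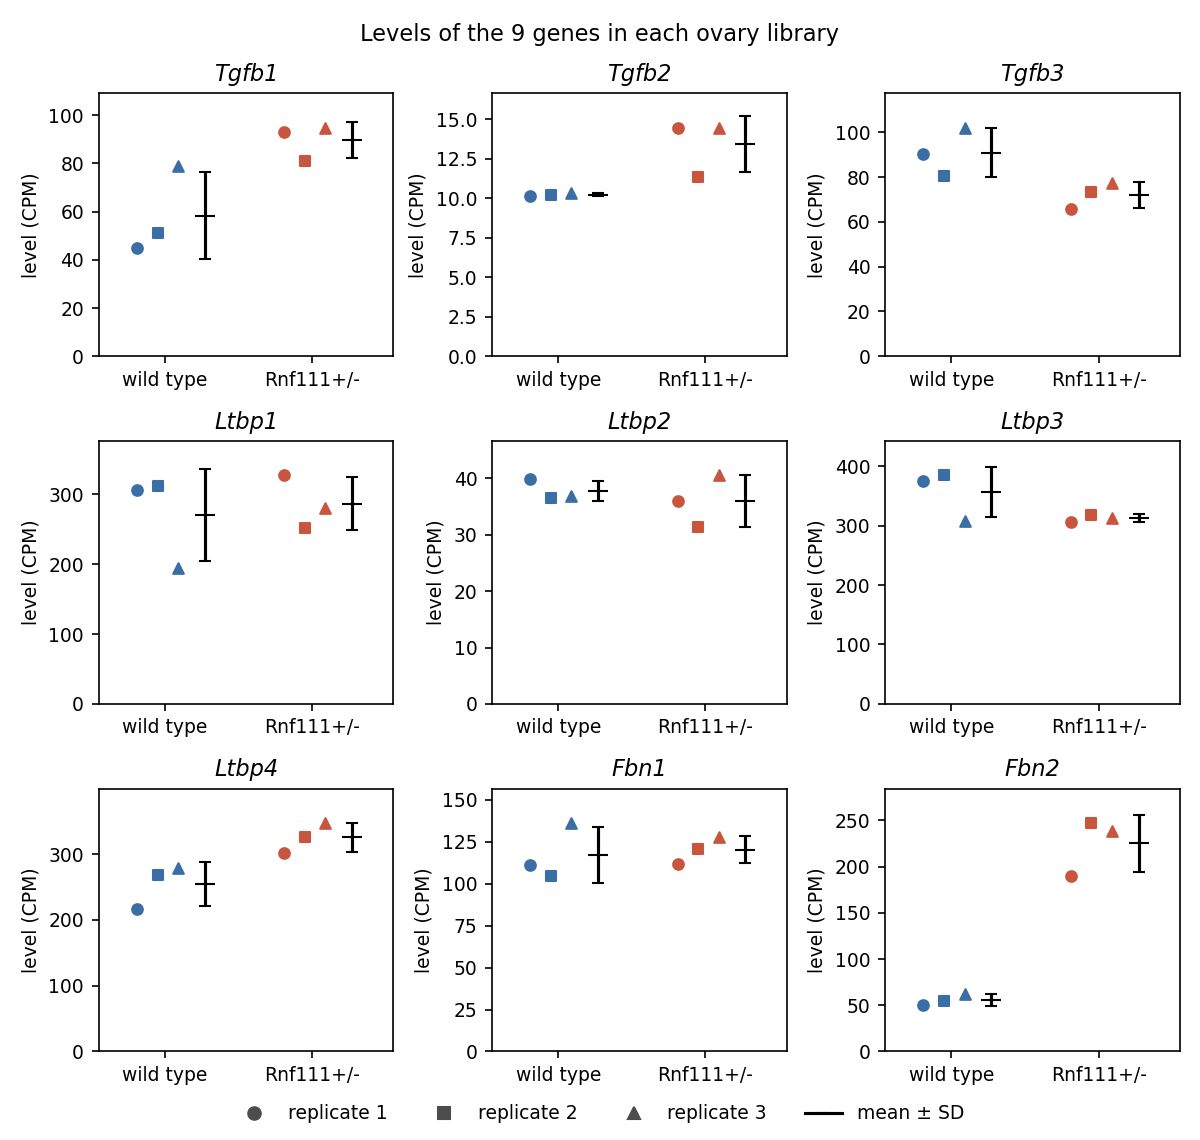
Levels of the 9 genes in each library, in CPM with the trimmed-mean scaling, 1 panel per gene with its own axis starting at 0; points are libraries, with a shape for each replicate number, and bars are means ± SD of 3. Fbn2 sits at 50.7 to 62.5 CPM in wild-type and 190 to 247 CPM in Rnf111+/- libraries, and Tgfb1 in wild-type library 3 (78.8 CPM, triangle) lies close to the Rnf111+/- points.

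Of the ligands, Tgfb1, the isoform found in most tissues and in immune and stromal cells, was at 45.0, 51.2 and 78.8 CPM in the wild-type libraries and at 92.8, 81.0 and 94.8 CPM in the Rnf111+/- libraries. The groups did not overlap, but wild-type library 3 lay just below the lowest Rnf111+/- library. The means were 58.3 ± 18.0 and 89.5 ± 7.47 CPM (SD, n = 3 each), a log2 fold change of 0.62 ± 0.21 that did not pass edgeR's quasi-likelihood test (adjusted p = 0.119). Without wild-type library 3 the log2 fold change was 0.91 and passed it (adjusted p = 8.6e-05). With all libraries it also passed in DESeq2 (adjusted p = 0.0130). That tool called 15.5% of all tested genes, against 9.64% in edgeR. Its false calls on simulated counts were well above the nominal rate, a limit on every DESeq2 result below. That library also had the highest summed macrophage markers, at 580 CPM, against 348 to 493 CPM in the other 5. Macrophage markers had a median log2 fold change of -0.07, and their sums overlapped between the genotypes. Summed stroma, smooth muscle, endothelium, surface epithelium, platelet, adipocyte and oviduct markers were highest in wild-type library 3 too. Its summed corpus luteum markers, at 2700 CPM, were the highest of the wild type, where the lowest sum was 1311 CPM. They were at 5003 to 7662 CPM in Rnf111+/- libraries, though only 3 of the 6 markers had a log2 fold change above 0. The part of any of these cells in the Tgfb1 level was not tested.

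Tgfb2, which acts through TGF-beta receptors with help from the coreceptor betaglycan, was the scarcest ligand. It was at 10.2, 10.2 and 10.3 CPM in wild-type libraries, from 390 to 405 counts, and at 14.5, 11.4 and 14.5 CPM in Rnf111+/- libraries. The wild-type values were close together and all below the Rnf111+/- values, of which library 2 was nearest to them. The log2 fold change was 0.39 ± 0.14, and it did not pass edgeR's quasi-likelihood test (adjusted p = 0.123) or any of the 13 alternatives, where the lowest adjusted p was 0.0619.

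Tgfb3, the third isoform, went the other way, from 90.3, 80.3 and 102 CPM in wild-type to 65.9, 73.3 and 77.1 CPM in Rnf111+/- libraries. Every Rnf111+/- value was below every wild-type value. The log2 fold change was -0.33 ± 0.10 (edgeR's quasi-likelihood test, adjusted p = 0.0769). It was past the threshold with DESeq2 (adjusted p = 0.0497) and without a count filter (0.0433), and was -0.23 (0.097) without wild-type library 3.

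Within each library, the ratio of Tgfb3 to Tgfb1 does not depend on depth or scaling. On the log2 scale of CPM it was 1.0, 0.65 and 0.37 in wild-type and -0.49, -0.14 and -0.30 in Rnf111+/- libraries. Tgfb3 thus had more reads than Tgfb1 in every wild-type ovary and fewer in every Rnf111+/- ovary, and the mean ratio was 1.98-fold lower. The ratio of Tgfb3 to Tgfb2 was 3.15, 2.98 and 3.30 against 2.19, 2.69 and 2.41, which is 1.64-fold lower. Both ratios gave p = 0.1 in the exact two-sided permutation test, the smallest possible, and 0.133 after adjustment over 4 ratios. The ratio of Tgfb2 to Tgfb1 overlapped between the groups and differed by -0.27 (exact permutation p = 0.4). Without wild-type library 3 the differences in log2 ratio were -1.14 for Tgfb3 to Tgfb1 and -0.63 for Tgfb3 to Tgfb2, against -0.99 and -0.71 with it, and -0.51 against -0.27 for Tgfb2 to Tgfb1. Summed over the 3 ligands, the level was 159 ± 27.5 CPM in wild-type and 175 ± 10.5 CPM in Rnf111+/- ovaries, with overlapping groups.

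**Figure D2:**
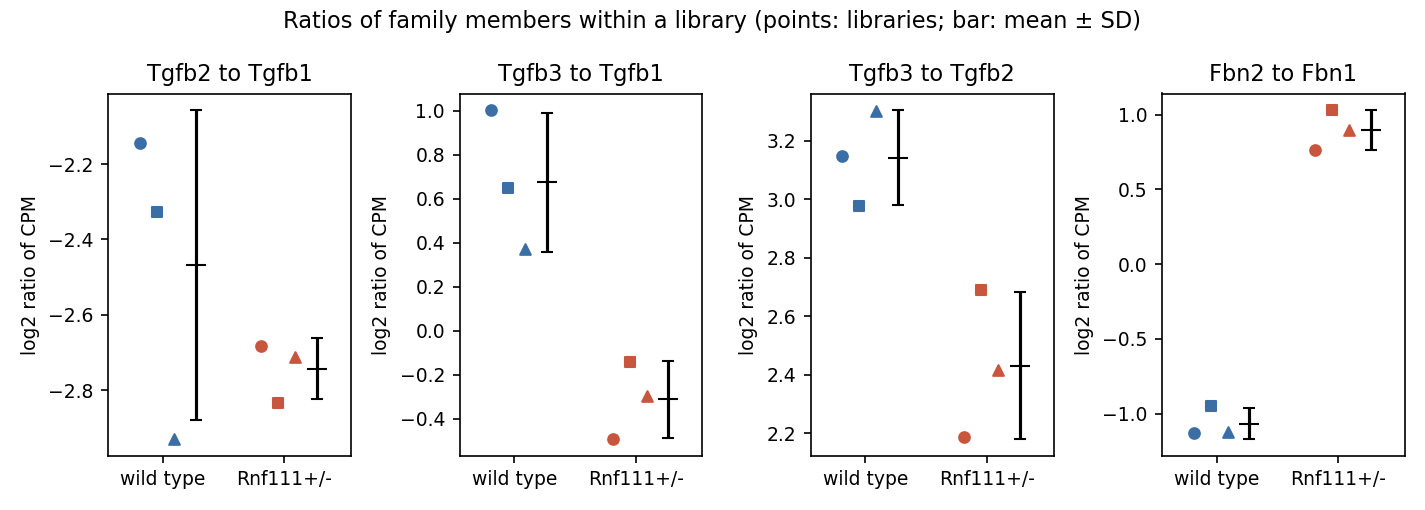
Log2 ratio of 2 genes within each library for 3 ligand pairs and the fibrillin pair; points are libraries, with a shape for each replicate number, and bars are means ± SD of 3; each panel has its own axis, on which 0 is equal CPM. Tgfb3 to Tgfb1 and Fbn2 to Fbn1 have wild-type and Rnf111+/- points on opposite sides of 0.

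The binding proteins were the most abundant of the 3 families. Ltbp4, which binds Tgfb1 and also helps elastic fibres assemble, was at 217, 268 and 279 CPM in wild-type and at 302, 326 and 347 CPM in Rnf111+/- libraries. The groups were apart, with wild-type library 1 the lowest of the 6. The log2 fold change was 0.35 ± 0.10 (edgeR's quasi-likelihood test, adjusted p = 0.0685). It passed in 5 of 13 alternatives, with adjusted p of 0.0472 under upper-quartile scaling, 0.0264 without a count filter, 0.0252 with the replicate number as a block, 0.0218 with DESeq2, and 0.0122 without wild-type library 3, where the log2 fold change was 0.44.

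Ltbp3, another carrier of latent TGF-beta, was at 376, 385 and 308 CPM in wild-type and at 306, 319 and 313 CPM in Rnf111+/- libraries. Wild-type library 3 lay among the Rnf111+/- libraries while the other two lay above them. The log2 fold change was -0.19 ± 0.09 (edgeR's quasi-likelihood test, adjusted p = 0.24), and without wild-type library 3 it was -0.27 and passed (0.0121).

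Ltbp1, the first binding protein described for the latent complex, was at 305, 311 and 195 CPM in wild-type and at 327, 252 and 280 CPM in Rnf111+/- libraries. Wild-type library 3 was the lowest of all, 0.66 below the other wild-type libraries on the log2 scale. The groups overlapped, with a log2 fold change of 0.08 ± 0.19 (edgeR's quasi-likelihood test, adjusted p = 0.835) that was -0.10 (0.57) without that library. Ltbp2, the family member that binds fibrillin but not latent TGF-beta, was at 39.9, 36.5 and 36.9 CPM against 36.0, 31.4 and 40.5 CPM. Its groups overlapped too, with a log2 fold change of -0.07 ± 0.11 (adjusted p = 0.734). The 4 binding proteins together were at 919 ± 92.4 CPM in wild-type and 960 ± 28.0 CPM in Rnf111+/- ovaries, with overlapping groups.

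Fbn2 encodes fibrillin-2, a microfibril protein best known from developing tissues, and Fbn1 encodes fibrillin-1, the main microfibril protein of adult tissues. Fbn2 had 1942, 2090 and 2448 counts in the wild-type libraries and 7619, 9682 and 9125 counts in the Rnf111+/- libraries. Scaled, these were 50.7, 54.2 and 62.5 CPM against 190, 247 and 238 CPM. Every Rnf111+/- library was thus far above every wild-type library, with Rnf111+/- library 1 the lowest of its group. The means were 55.8 ± 6.09 and 225 ± 30.9 CPM, a log2 fold change of 2.01 ± 0.12 (edgeR's quasi-likelihood test, adjusted p = 0.00015).

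The rise of Fbn2 passed the test in all 13 alternatives, with log2 fold changes from 1.95 to 2.12 and an adjusted p of at most 0.00146. Its p was the 9th smallest of 16841. Of 14309 tested genes averaging 1 CPM or more, 59 had a log2 fold change at least as high, Fbn2 included, and 48 of these were called. Only Fbn2 among those 48 had a mean of 100 CPM or more, which depends on the cutoff and on the calls. Cyp17a1, called with a log2 fold change of 6.13, came close to that cutoff, with group means of 2.81 and 197 CPM. The corpus luteum markers Akr1c18 and Sfrp4 had log2 fold changes of 3.13 and 2.56 at higher mean levels than Fbn2. They were not called (edgeR's quasi-likelihood test, adjusted p = 0.153 and 0.0972).

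Fbn1 was at 111, 104 and 136 CPM in wild-type and at 112, 121 and 128 CPM in Rnf111+/- libraries. The groups overlapped, with the highest and the lowest value both in wild-type ovaries. The log2 fold change was 0.04 ± 0.11 (edgeR's quasi-likelihood test, adjusted p = 0.868), and 0.17 (0.16) without wild-type library 3. The log2 ratio of Fbn2 to Fbn1 went from -1.13, -0.95 and -1.12 to 0.76, 1.03 and 0.90, a 3.90-fold higher mean ratio (exact two-sided permutation p = 0.1, adjusted 0.133). The fibrillin sum was 173 ± 22.4 CPM in wild-type and 345 ± 38 CPM in Rnf111+/- ovaries, with the groups apart.

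Markers of ovarian cell types also differed between the genotypes, and in bulk libraries fewer cells of a type and less RNA per cell cannot be told apart. Summed granulosa markers were at 3545 to 7319 CPM in wild-type and 8014 to 10640 CPM in Rnf111+/- libraries, with 1 of 10 markers called, the aromatase gene Cyp19a1, as higher. Corpus luteum markers summed to 1311 to 2700 against 5003 to 7662 CPM. Only 3 of these 6 markers had a log2 fold change above 0, and the 1 called, Parm1, fell. Theca and interstitium markers summed to 12220 to 13220 against 8679 to 10850 CPM, although 4 of the 8 markers had a log2 fold change above 0. Star and Hsd3b1, of steroid synthesis, fell, and Cyp17a1, the androgen-making enzyme of theca cells, rose from 2.81 to 197 CPM. Oocyte markers summed to 138 to 155 against 191 to 257 CPM, and 5 of 8 rose. Stroma markers went from 2320 to 2557 CPM down to 1588 to 1852 CPM and 5 of 8 fell, and endothelium markers from 400 to 467 CPM down to 294 to 341 CPM, where again 5 of 8 fell. Smooth muscle markers were at 1217 to 1532 against 815 to 1061 CPM, with 2 of 8 fallen, and surface epithelium markers at 563 to 653 against 473 to 510 CPM, with 4 of 8 fallen. Beside these counts, 3.9% of all tested genes were called as higher and 5.74% as lower. The part of these shifts in the Fbn2 result, or in any other member's value, was not tested.

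**Figure D3:**
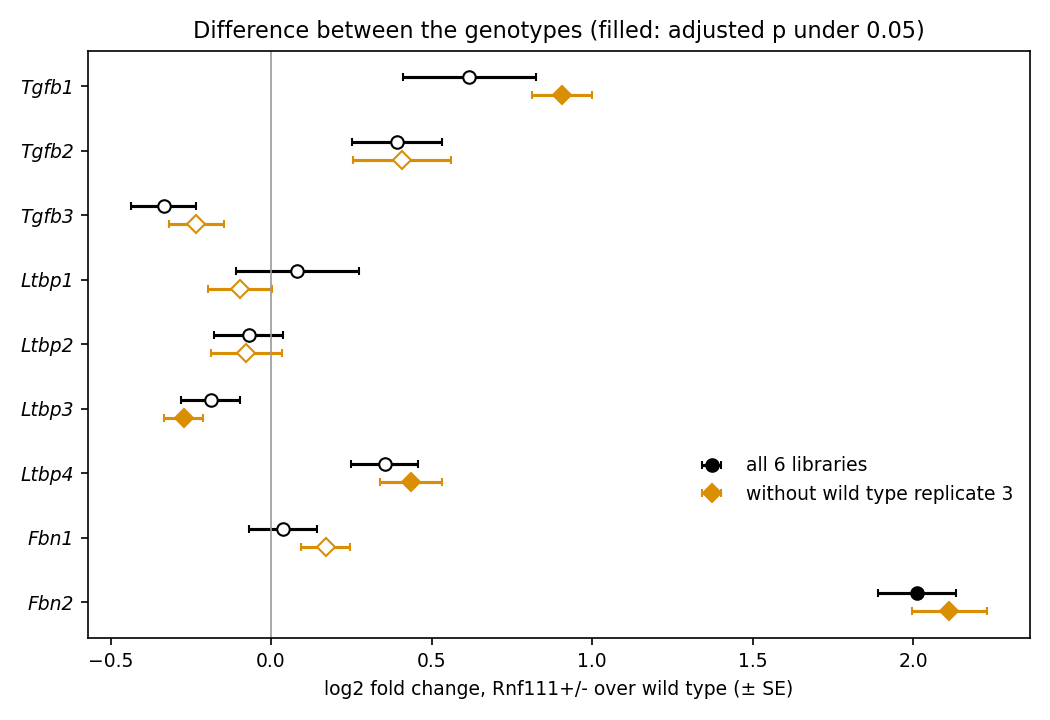
Log2 fold change of each of the 9 genes, Rnf111+/- over wild type, with bars of 1 SE, for all 6 libraries (circles) and without wild-type library 3 (diamonds); filled points had an adjusted p under 0.05. Fbn2 is at 2.01, the other 8 genes lie between -0.33 and 0.62 with all libraries, and Tgfb1 moves to 0.91 without that library.

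By level per length (CPM per kb of exon), Ltbp4 and Ltbp3 led in wild-type ovaries, at 39.4 ± 5.14 and 39.3 ± 4.63 on this exon scale. Tgfb3 at 26.9 and Ltbp1 at 25.3 followed, then Tgfb1 at 11.6, Fbn1 at 9.66, Ltbp2 at 4.61, Fbn2 at 4.22 and Tgfb2 at 1.77. Each neighbouring pair from the top (Ltbp4 and Ltbp3, Tgfb3 and Ltbp1, Tgfb1 and Fbn1, Ltbp2 and Fbn2) had overlapping libraries, while the steps between these pairs and down to Tgfb2 did not overlap. In Rnf111+/- ovaries Ltbp4 stood alone at 50.3, above Ltbp3 at 34.5, Ltbp1 at 26.8, Tgfb3 at 21.3 and Tgfb1 at 17.8. Fbn2 came next at 17.0, overlapping Tgfb1, and ahead of Fbn1 at 9.91, Ltbp2 at 4.40 and Tgfb2 at 2.32. Fbn2 thus went from rank 8 to rank 6 of 9. With coding length in place of exon length, Ltbp3 led in both genotypes, at 94.8 and 83.2 CPM per kb. Ltbp4 then ranked 4 in wild-type ovaries at 50.9, below Tgfb3 at 73.5 and Ltbp1 at 52.7. In Rnf111+/- ovaries it ranked 3 at 65.1, below Tgfb1 at 76.5, while Fbn2 went from rank 9 to rank 6. Tgfb2, the lowest per kb of exon, ranked 7 in wild-type and 8 in Rnf111+/- ovaries by coding length. On both scales Fbn2 was below Fbn1 in wild-type and above it in Rnf111+/- ovaries. Leaving out wild-type library 3 exchanged Ltbp3 (41.9) with Ltbp4 (37.5), and Ltbp1 (28.9) with Tgfb3 (25.2), in the wild-type order per kb of exon, and moved no other rank.

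Within families, again per kb of exon, Fbn2 made up 30.5 ± 1.55% of fibrillin in wild-type and 63.1 ± 2.16% in Rnf111+/- ovaries. Tgfb1 made up 28.4 ± 4.49% and 42.9 ± 2.56% of ligand, and Tgfb3 67.1 ± 4.04% and 51.5 ± 3.18%. For the binding proteins, Ltbp4 was at 30.9, 35.3 and 43.2% in wild-type and 40.5, 44.7 and 45.0% in Rnf111+/- libraries, with wild-type library 3 inside the Rnf111+/- range. Ltbp3 was at 36.1 ± 2.11% and 29.7 ± 1.18%. Without wild-type library 3 the wild-type means were 33.1% for Ltbp4, 37.2% for Ltbp3, 26.2% for Tgfb1, 69.0% for Tgfb3 and 30.9% for Fbn2. By coding length, Fbn2 went from 32.1 to 64.8% of fibrillin. Tgfb1 then went from 37.5 to 52.8% and Tgfb3 from 56.5 to 40.3% of ligand, so that Tgfb1 exceeded Tgfb3 in Rnf111+/- ovaries on that scale and not on the exon scale. Ltbp4 went from 25.1 to 30.9% and Ltbp3 from 46.1 to 39.5% of binding protein by coding length, so that Ltbp3 exceeded Ltbp4 in both genotypes there. Lengths are from the GENCODE annotation of the earlier build GRCm38, and which transcripts the ovary uses was not measured.

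**Figure D4:**
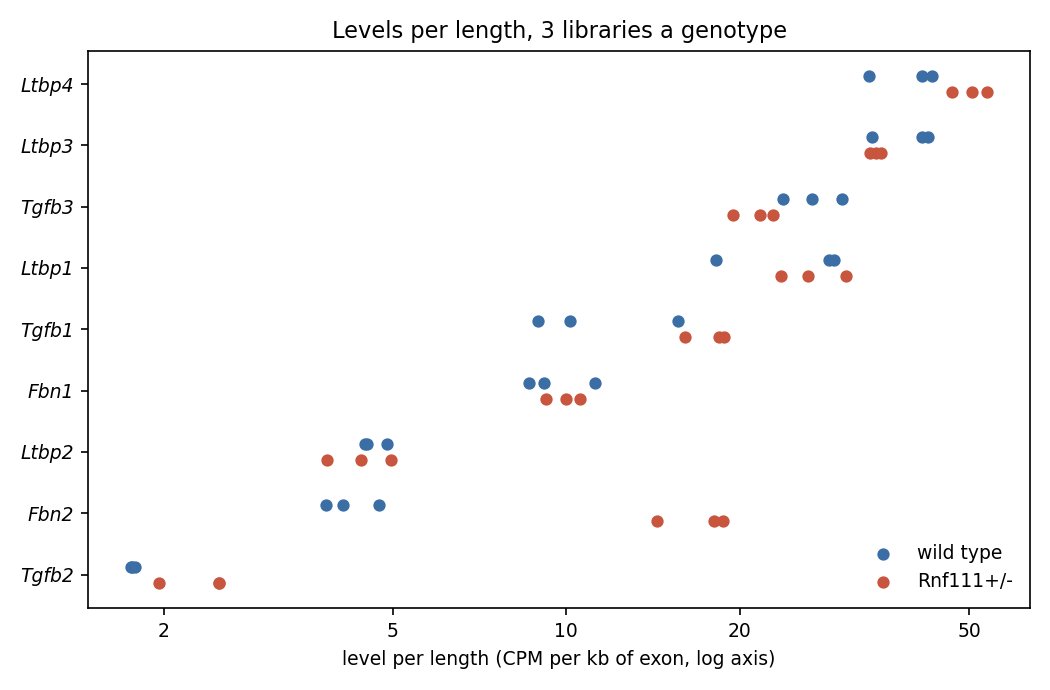
Level of each gene in CPM per kb of exon on a log axis, by genotype; each point is a library, and genes are ordered by their wild-type mean. The mean of Fbn2 moves from 4.22 to 17.0, past Fbn1, and Ltbp4 and Ltbp3 are highest in both genotypes on this exon scale, though not by coding length.

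The genes whose profile over the 6 libraries was most like that of Fbn2 were found by the root mean square difference of mean-centred log2 CPM. They were Cbs, a sulfur amino acid enzyme, at 0.177, Chdh, choline dehydrogenase, at 0.196, and Dact1, an adaptor of Wnt signalling, at 0.198. Because the profile of Fbn2 is mostly its difference between the genotypes, a like difference in these genes follows from the choice. Cbs was at 10.5 ± 1.27 CPM in wild-type and 42.9 ± 4.59 CPM in Rnf111+/- ovaries. Chdh went from 2.79 to 8.82 CPM and Dact1 from 36.6 to 130 CPM.

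In a list of microfibril and elastic fibre partners, 5 of 26 tested genes fell, 1 rose and 20 did not pass, 8 of the 26 had a log2 fold change above 0, and the median log2 fold change was -0.37, against -0.01 over all tested genes, of which 5.74% fell and 3.9% rose. Hspg2, the basement membrane proteoglycan perlecan, was at 650, 707 and 691 CPM in wild-type and at 373, 375 and 416 CPM in Rnf111+/- libraries, a log2 fold change of -0.81 ± 0.07 (edgeR's quasi-likelihood test, adjusted p = 0.000675). Fn1, the fibronectin that fibrillin fibres and binding proteins are laid on, fell from 147 ± 8.52 to 105 ± 6.33 CPM (-0.49 ± 0.08, adjusted p = 0.00721). Both moved in the direction opposite to Fbn2, and both passed in all 13 alternatives.

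The microfibril-binding proteins Adamtsl4, Mfap4 and Fbln2 fell, by 1.34, 0.52 and 0.64 on the log2 scale (edgeR's quasi-likelihood test, adjusted p = 0.0159, 0.0204 and 0.0219). Adamts6, a metalloprotease that acts on microfibrils, rose by 0.91 ± 0.19, from 11.8 to 22.2 CPM (adjusted p = 0.0229). Elastin (Eln) had a log2 fold change of -0.40 (adjusted p = 0.354), and the microfibril glycoproteins Mfap2 and Mfap5 had 0.17 (0.27) and -0.57 (0.239). With 1 library left out the number called in this list ran from 2, without wild-type library 2 or Rnf111+/- library 2 or 3, to 11 without wild-type library 3, and it was 3 without Rnf111+/- library 1. The share of all tested genes called in such fits ran from 3.07%, without Rnf111+/- library 2, to 16.2% without wild-type library 3. Stroma, smooth muscle and endothelium markers, which moved the same way, are given above, and their part was not tested.

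Among genes that process or activate latent TGF-beta, 3 of 23 tested fell, 1 rose and 19 did not pass, with a median log2 fold change of -0.10. Of all tested genes, 5.74% fell and 3.9% rose. Pcsk5, a proprotein convertase, was at 134, 115 and 197 CPM in wild-type and at 43.4, 57.2 and 53.8 CPM in Rnf111+/- libraries (-1.53 ± 0.22; edgeR's quasi-likelihood test, adjusted p = 0.00967). The groups were well apart, with wild-type library 3 the highest, and without that library the log2 fold change was -1.26 (adjusted p = 0.000137). Furin, the convertase best known for cutting the TGF-beta precursor, was at 182 ± 37.5 and 183 ± 17.3 CPM, a log2 fold change of 0.00 ± 0.14 (adjusted p = 0.995).

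Thbs1, the matricellular activator thrombospondin-1, rose from 558 ± 86.7 to 857 ± 122 CPM (0.62 ± 0.14; edgeR's quasi-likelihood test, adjusted p = 0.032). Dcn, the proteoglycan decorin that binds TGF-beta and is also a stroma marker, fell by 0.89 on the log2 scale (0.0183), and the protease gene Ctsd by 0.26 (0.0414). The integrin genes Itgav and Itgb8 had log2 fold changes of -0.10 (adjusted p = 0.637) and 0.32 (0.367). Lrrc32 and Nrros, which tether latent TGF-beta to cell surfaces, had -0.13 (0.625) and -0.30 (0.394). Itgb6 was too low to be tested, at 0.182 ± 0.183 and 0.103 ± 0.135 CPM. The number called in this list was 1 without wild-type library 1 or Rnf111+/- library 2 or 3, 2 without Rnf111+/- library 1, and 9 without wild-type library 3. Of all tested genes, 5% were called without wild-type library 1, and 3.07% and 3.23% without Rnf111+/- library 2 and 3. The share was 4.97% without Rnf111+/- library 1 and 16.2% without wild-type library 3.

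Of 12 receptor and SMAD genes, 3 rose, 1 fell and 8 did not pass, with a median log2 fold change of 0.07, while 3.9% of all tested genes rose and 5.74% fell. Smad3, the transcription factor that carries the signal, rose by 0.40 (106 to 140 CPM; edgeR's quasi-likelihood test, adjusted p = 0.0169). The anchor gene Zfyve9 rose by 0.33 (0.0308) and Smad7, a feedback inhibitor and Arkadia substrate, by 0.44 (0.0398). Acvrl1, an endothelial type I receptor, fell by 0.38 with an adjusted p of 0.0499, and this call was lost in 10 of 13 alternatives. Log2 fold changes for the core pathway were 0.06 for Tgfbr1 (adjusted p = 0.691), -0.22 for Tgfbr2 (0.289), -0.09 for Tgfbr3 (0.548) and 0.07 for Smad2 (0.739). With 1 library left out, 0 of the 12 passed without wild-type library 1 or Rnf111+/- library 2, where 5% and 3.07% of all tested genes were called. In these fits, made with edgeR, 7 and 6 of the 12 had an unadjusted p under 0.05. The share of all tested genes under that value was not counted there. With all libraries it was 4290 of 16841 genes, and 6 of the 12 in this list. In the fits without wild-type library 2 or Rnf111+/- library 3, 1 passed. Of all tested genes, 4.77% and 3.23% were called in those fits.

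In a list of 25 genes that TGF-beta or SMAD3 is known to induce, 7 fell, 2 rose and 16 did not pass, with a median log2 fold change of -0.21. Of the 25, 10 had a log2 fold change above 0. The shares over all tested genes were 5.74% fallen and 3.9% risen. Among those that fell were matrix and contractile genes: Col3a1 from 1348 to 663 CPM (-1.02 ± 0.13), Tagln by 1.13, Itga5 by 0.76, Tgfbi by 0.65 and Col1a1 by 0.68 on the log2 scale (edgeR's quasi-likelihood test, adjusted p from 0.00395 to 0.0233). Col1a2, named after its value was seen, also fell, by 0.34 (0.035). Ccn2, a matricellular growth regulator, rose from 56.0 ± 17.9 to 182 ± 52.9 CPM (1.70 ± 0.31; adjusted p = 0.027), a call lost in 6 of 13 alternatives, among them the fit without wild-type library 3 (1.51, adjusted p = 0.0664). The corepressor gene Tgif1 rose by 0.47 (0.0256). Col1a1, Col1a2 and Tagln are also among the stroma or smooth muscle markers. The number called was 4 without Rnf111+/- library 2 and 5 without Rnf111+/- library 1 or 3. Of all tested genes, 3.07% were called without Rnf111+/- library 2, 4.97% without library 1 and 3.23% without library 3. Without wild-type library 3, 13 of the 25 were called, 9 as lower and 4 as higher. In that fit 16.2% of all tested genes were called. Of the 22 pathway genes that the naming rule took as called, 6 (Hspg2, Fn1, Pcsk5, Col3a1, Tagln and Itga5) passed in all 13 alternatives, and the other 16 lost the call in 2 to 10 of them.

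**Figure D5:**
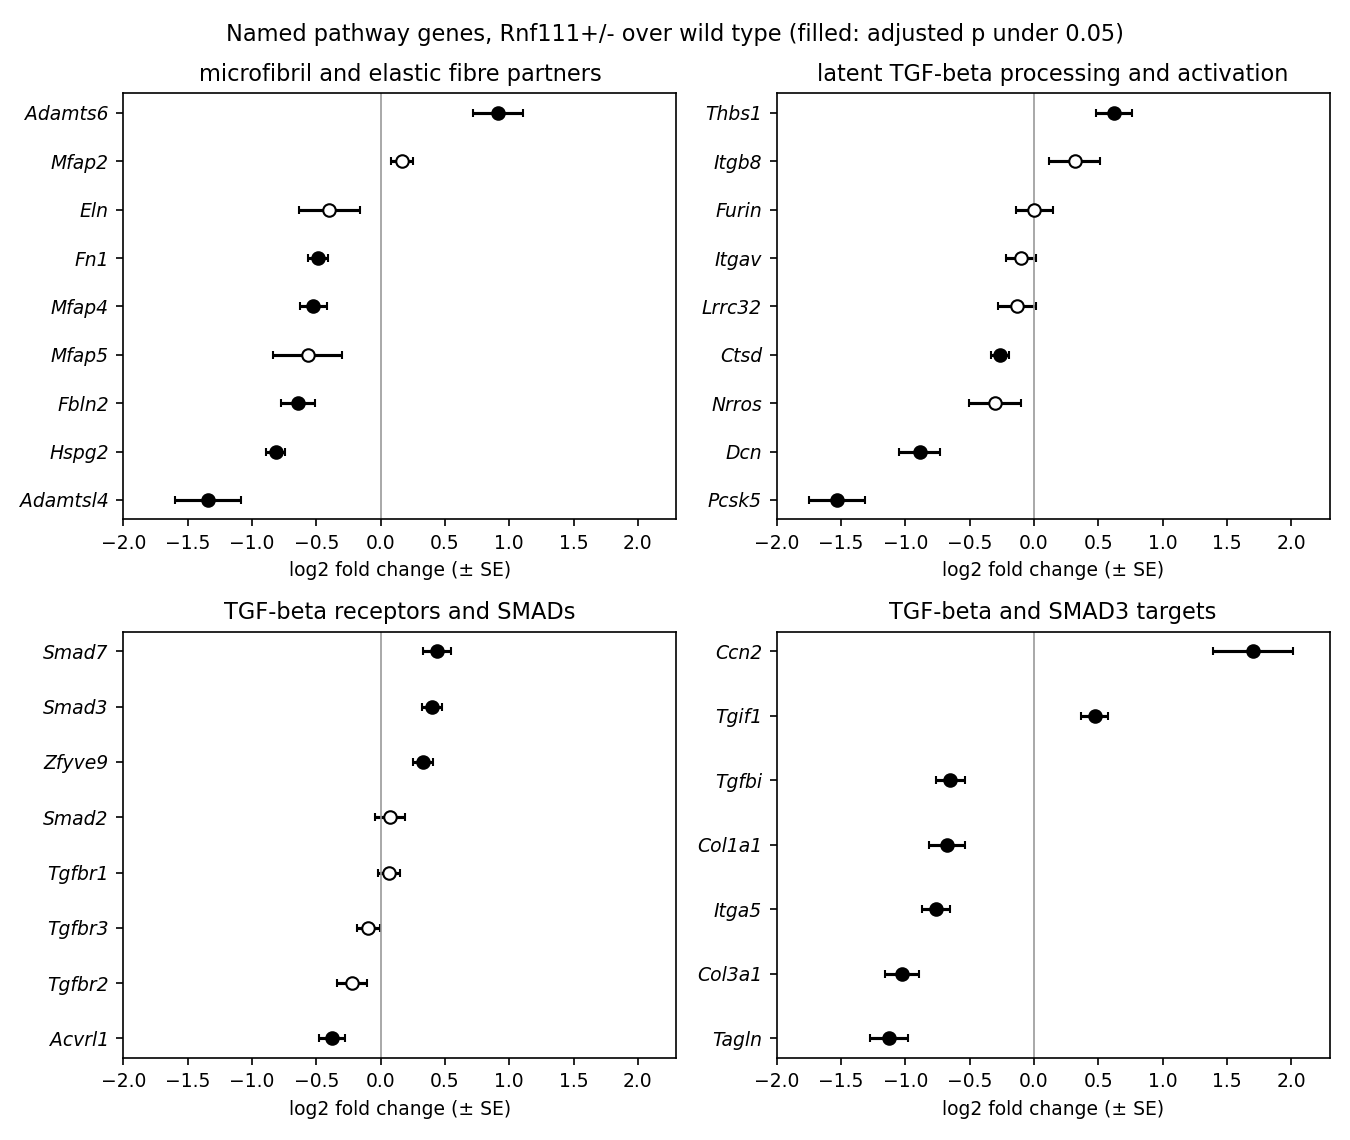
Log2 fold change, Rnf111+/- over wild type, of genes named from the 4 pathway lists, 1 panel per list, with bars of 1 SE; filled points passed edgeR's quasi-likelihood test at an adjusted p under 0.05 and open points did not. Pcsk5 at -1.53 and Ccn2 at 1.70 lie farthest from 0, and the receptors Tgfbr1, Tgfbr2 and Tgfbr3 are open points.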

How the data were processed

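Read counts were deposited by the authors as whole numbers, 1 row per gene symbol and 1 column for each of the 6 ovary libraries. The submitters' processing notes name fastp (0.20.1), HISAT2 (2.1.0), HTSeq (0.11.2), DESeq2 (1.38.3) and build GRCm39. Their roles, the annotation and whether counting used the strand are not stated there, and overlapping genes may share reads.

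Genotypes came from the labels. The deposited counts were analysed with edgeR (4.0.16; R 4.3.3): filterByExpr (minimum count 10, minimum total 15), trimmed-mean (TMM) scaling and a robust two-sided quasi-likelihood test on genotype, adjusted by Benjamini-Hochberg over 16841 genes. The SE was taken as the size of the log2 fold change over the square root of F. Levels are CPM as mean ± SD of 3 libraries, and floors of 3 counts cover counting error only. Ratios were tested by exact permutation. Lengths came from GENCODE M21 and promoters from RefSeq, both on GRCm38. Alternatives were other scalings and filters, DESeq2 (1.42.0), limma-voom (3.58.1), a replicate block and leaving out each library.

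The members and gene lists were chosen with earlier results of these data known. Named genes were the 9 members, Rnf111, up to 8 called genes of smallest p in each of 4 pathway lists, 20 pathway genes whatever their result, and the 3 genes most like each called member (mean of at least 1 CPM). Adamtsl6 was listed beside Thsd4, another name of the same gene, and counted once. A gene taken by this rule is not reported here. On simulated counts, the share of false calls was somewhat above the nominal rate for edgeR and limma-voom and well above it for DESeq2.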

Additional observations from a re-analysis of the deposited data

How the results depend on the processing

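Called genes numbered 1623 of 16841, and 2615 with DESeq2, whose false calls on simulated counts were well above the nominal rate. With each library left out in turn, which leaves 2 libraries in 1 group, the number ran from 530 (3.07% of tested genes) without Rnf111+/- library 2 to 2795 (16.2%) without wild-type library 3. The members called were 1, and 2 with upper-quartile scaling, 3 with no filter, 4 with DESeq2, and 1 to 4 with a library left out, where 4 came without wild-type library 3. Of all tested genes, 9.64% were called in the main fit, 9.67% with upper-quartile scaling, 6.88% with no filter and 15.5% with DESeq2. Microfibril and elastic fibre partners called were 6, 10 with DESeq2, and 2 to 11 with a library left out. Processing and activation genes called were 4, and 1 to 9 with a library left out. With a library left out, receptors and SMADs called went from 4 to between 0 and 5, and targets from 9 to between 4 and 13; with DESeq2 they were 6 and 13. The Rnf111 log2 fold change was no longer called with upper-quartile scaling (-0.24), with no filter (-0.27) and with the replicate block (-0.27), and ran from -0.27 to -0.26 with a library left out. Replicate numbers were not taken to pair the libraries: deviations of same-numbered libraries correlated at 0.0426, 0.038 and 0.182. With the number as a replicate block, 1626 genes (9.66% of those tested) and 2 members were called. None of the 44 genes taken by the naming rule changed direction while called. Coding lengths from a protein table were not run. Coding lengths from GENCODE, chosen after seeing the data, were used instead. They raised the levels per length and changed the order of the members. Ltbp4 went from rank 1 to rank 4 in wild-type and 3 in Rnf111+/- ovaries, and Ltbp3 from 2 to 1 in both. Tgfb1 went from rank 5 to 2 in Rnf111+/- ovaries. Fbn2 went from rank 8 to 9, and Tgfb3 from 3 to 2, in wild-type ovaries. Ltbp1 went from rank 4 to 3 in wild-type and from 3 to 5 in Rnf111+/- ovaries. Tgfb2 went from rank 9 to 7 in wild-type and to 8 in Rnf111+/- ovaries. Ltbp2 went from rank 7 to 8 in wild-type and from 8 to 9 in Rnf111+/- ovaries. Leaving wild-type library 3 out of levels per length was also added after seeing the data. Where causes are not named above, the cause was not tested. Depth was even, and the lowest count of any member was 390. Whether depth limited the test of any member was not tested.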
